A study of Mus musculus with 18 samples.

Results

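Guanylate-binding proteins (GBPs) are encoded by a family of interferon-inducible genes, and the 9 genes described here, Gbp2 to Gbp10, were chosen by name from the 33440 genes listed in all 18 libraries of the series. RNA-seq was used in the study to look for genes downstream of the transcription factor IRF3 in adipocytes, and 2 experiments were sequenced. In the gain-of-function experiment, stromal-vascular fraction (SVF) cells from inguinal fat of C57BL/6 IRF3-2D mice were differentiated into adipocytes, transduced on day 6 with an adeno-associated virus (AAV) and harvested on day 8. The methods give the fat-pad donors as 4 to 6 weeks old, and the IRF3-2D allele encodes constitutively active IRF3 once recombined by Cre. Cultures given AAV-GFP (WT SVF, 3 libraries) carried the same unrecombined allele, and cultures given AAV-GFP-Cre (FI3OE, 3 libraries) expressed active IRF3, so these groups also differed in Cre itself. In the loss-of-function experiment, ribosome-bound RNA was isolated by translating ribosome affinity purification (TRAP) from epididymal white adipose tissue (eWAT) of Ad-NuTRAP mice (WT TRAP, 6 libraries) and FI3KO-Ad-NuTRAP mice that lacked Irf3 in adipocytes (FI3KO, 6 libraries). All TRAP mice were fed a high-fat diet (HFD) for 8 weeks at thermoneutrality, and the sources used here do not tie an age or sex to them. The methods describe male mice, 8 weeks old at the start, on a longer HFD at thermoneutrality. Adipoq-Cre, which is active in adipocytes, switches on the GFP-tagged ribosomal protein in both TRAP groups and deletes Irf3 in FI3KO.

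GBPs are large GTPases of the dynamin superfamily that assemble on the membranes of pathogen-containing vacuoles and on bacteria in the cytosol. They expose microbial products to inflammasome sensors, and several members carry a C-terminal prenyl lipid that anchors them to membranes. Their transcription is strongly induced by interferon gamma, in part through IRF1, and also by type I interferon, which acts through the interferon-stimulated response element (ISRE) that IRF proteins recognise. IRF3 is known for the first wave of interferon-beta and of ISRE-bearing genes after Toll-like receptor or cytosolic nucleic acid signalling. GBPs are best studied in macrophages, where interferon gamma raises them to high levels.

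The members lie in 2 clusters on GRCm38. In GENCODE M21, Gbp5 (chr3:142493978-142522344), Gbp7 (chr3:142530342-142550149), Gbp3 (chr3:142560026-142573209) and Gbp2 (chr3:142620602-142638008) follow each other on the plus strand of chromosome 3. Gbp8 (chr5:105014150-105139540), Gbp9 (chr5:105077630-105139539), Gbp4 (chr5:105115767-105139586), Gbp10 (chr5:105215699-105239533) and Gbp6 (chr5:105270702-105293698) lie on the minus strand of chromosome 5, and the loci of Gbp8, Gbp9 and Gbp4 overlap. RefSeq promoter windows were at hand for 4 of the 9 members, all on chromosome 3, and only these could be shown. Gbp4, Gbp6, Gbp9 and Gbp10 on chromosome 5 also rose with active IRF3 but had no window to compare. Each line gives the 250 bases before the RefSeq start (GRCm38.p6, plus strand, 5′ to 3′), and capitals mark matches to the ISRE letters GAAANNGAAA on either strand.
Gbp2, chr3:142620413-142620662: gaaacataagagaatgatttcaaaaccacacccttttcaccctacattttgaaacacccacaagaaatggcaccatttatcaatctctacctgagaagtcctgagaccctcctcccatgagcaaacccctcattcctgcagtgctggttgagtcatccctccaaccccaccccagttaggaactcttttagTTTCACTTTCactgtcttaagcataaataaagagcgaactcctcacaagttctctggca
Gbp3, chr3:142559794-142560043: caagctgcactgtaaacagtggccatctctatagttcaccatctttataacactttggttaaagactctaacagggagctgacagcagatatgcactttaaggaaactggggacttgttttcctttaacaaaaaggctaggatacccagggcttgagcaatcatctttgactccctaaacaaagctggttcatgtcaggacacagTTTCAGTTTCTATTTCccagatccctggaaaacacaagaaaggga
Gbp5, chr3:142496684-142496933: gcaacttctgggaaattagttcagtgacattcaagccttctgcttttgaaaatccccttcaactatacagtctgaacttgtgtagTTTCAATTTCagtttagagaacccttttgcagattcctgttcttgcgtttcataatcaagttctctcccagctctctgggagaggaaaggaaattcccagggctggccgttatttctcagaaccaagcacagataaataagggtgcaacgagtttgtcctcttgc
Gbp7, chr3:142530086-142530335: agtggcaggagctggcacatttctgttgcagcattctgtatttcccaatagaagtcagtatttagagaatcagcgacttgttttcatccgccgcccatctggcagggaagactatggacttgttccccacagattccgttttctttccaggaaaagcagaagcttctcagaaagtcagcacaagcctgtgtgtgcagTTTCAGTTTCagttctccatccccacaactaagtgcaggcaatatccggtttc
The ISRE letters occurred in a window of all 4 genes, once for Gbp2, Gbp5 and Gbp7 and as 2 overlapping matches for Gbp3, and each match read on the minus strand. They ended 50 bases before the RefSeq start for Gbp2, 30 for Gbp3, 44 for Gbp7 and 156 for Gbp5. In GENCODE M21 the Gbp2 gene starts 61 bases upstream of the RefSeq start and the Gbp5 gene 2956 bases upstream, so that the Gbp5 window lies inside the GENCODE gene, while the starts of Gbp3 and Gbp7 lie within 18 bases of each other in the 2 annotations. A second RefSeq window of Gbp3 held no match. Of 32851 such 250-base windows of all genes, 2.98% held the ISRE letters at least once. The letters TTCNNNGAA of the interferon-gamma-activated (GAS) element occurred at 2 places in the windows of Gbp5 and Gbp7 and in 7.02% of all windows, and GGGNNTTTCC, a form of the NF-kB site, occurred in that of Gbp5 and in 1.41% of all windows. The neighbouring gene Gbp2b, which is not a member, also held the ISRE letters, 128 bases before its start, yet had only 0 to 3 reads in any library. These matches are letters in a window and say nothing of binding.

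Total reads ranged from 21541334 to 36932452 in the 6 SVF libraries and from 25259869 to 40490283 in the 12 TRAP libraries. Levels below are CPM, estimated reads divided by the library's total and scaled to a common depth, and 3 reads correspond to 0.0741 to 0.139 CPM. Irf3 itself was 1.66-fold higher in FI3OE (56.8 to 58.6 CPM in WT SVF, 90.8 to 100.3 in FI3OE), where reads of the transgene and of the endogenous gene are counted together. In FI3KO, Irf3 was 0.78 times WT TRAP (17.2 to 23.2 CPM in WT, 12.4 to 18.8 in FI3KO, overlapping), while the protein-coding transcript Irf3-202 had 0 reads in all 6 FI3KO libraries and 164 to 388 reads in WT TRAP. The short protein-coding transcript Irf3-211 went the other way, with 0 to 7.65 estimated reads in WT TRAP and 89.9 to 175 in FI3KO, and summed Irf3 TPM was 44.4 ± 3.4 in WT TRAP and 69.7 ± 14.5 in FI3KO, so the direction of Irf3 as a whole depends on the unit. Adipocyte markers were abundant in all groups, with a summed level of 11800 CPM or more. The SVF cultures also held macrophage markers, whose 15 genes summed to 2229 to 2475 CPM with none at 0. Replicates 1 and 2 of both TRAP groups stood apart from replicates 3 to 6, so the FI3KO results for the members are given with all libraries and within each set. Other TRAP tests, those for the pathway lists and for WT TRAP against WT SVF among them, rest on all libraries. WT TRAP replicates 1 and 2 were closer to each other (chi-square per degree of freedom 2.60) than any other WT TRAP pair (9.67 to 158) but differed by more than sampling noise. The samples are labelled as biological replicates, and no source says that they came from separate animals or cultures, so p-values measure the spread between these samples.

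The GBP family was higher in adipocytes with active IRF3. Of the 9 members, all of which passed the filter on low counts, 8 were higher in FI3OE with an adjusted p of 0.05 or lower (edgeR quasi-likelihood test on TMM-normalised counts, Benjamini-Hochberg over 16105 genes), against 20.2% of all genes tested. None was lower, against 16.8% of all genes. With the added requirement of a 2-fold change, 7 members passed, against 1.99% of genes that passed both cutoffs upward and 1.63% downward. The median log2 fold change was 1.41 over the members and -0.0047 over all genes. In 8 members the lowest FI3OE library lay above the highest WT SVF library, which held for 24.1% of all genes, and 25.7% separated in the other direction. The summed level of the 9 genes went from 479 ± 17 (SD, n = 3) to 1173 ± 48 CPM (n = 3). In bulk RNA, a change in the number of cells of a type and a change in RNA per cell cannot be told apart.

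**Figure D1:**
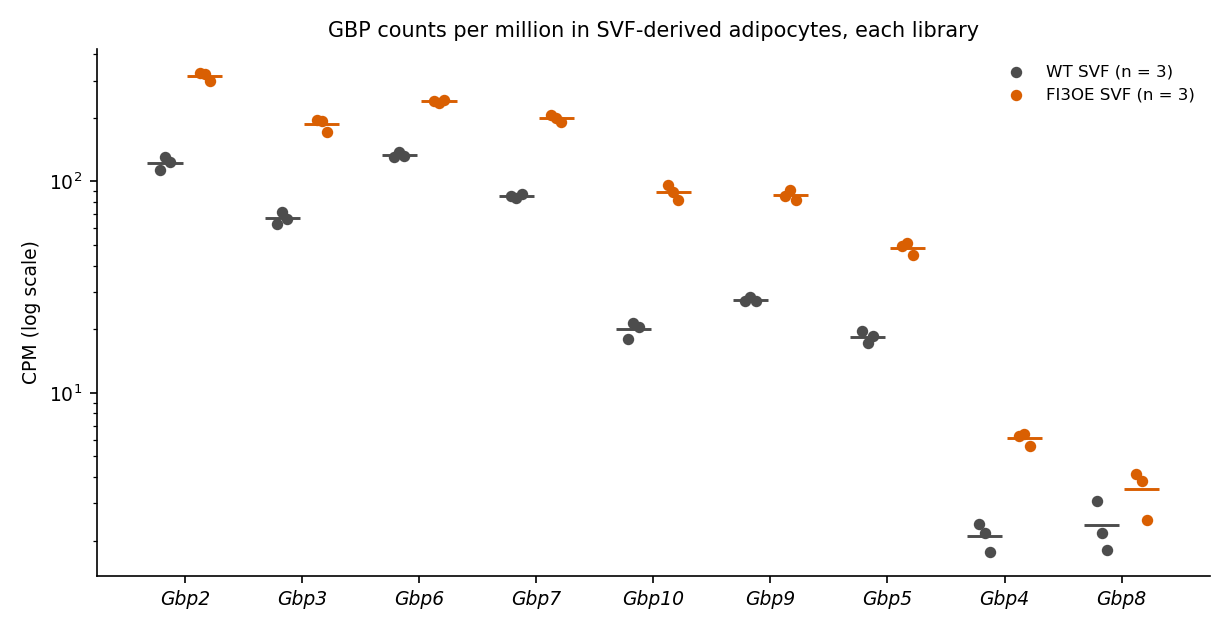
CPM (log axis) of each member in each SVF library, with WT SVF in grey, FI3OE in orange and a line at the mean of 3 libraries. The 2 groups are separate in 8 genes, and the Gbp8 libraries overlap.

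Gbp2 and Gbp5 are prenylated members that act with the AIM2, NLRP3 and caspase-11 inflammasomes. Gbp2 was measured at 114, 131 and 123 CPM in WT SVF and at 325, 323 and 298 CPM in FI3OE. That is a 2.60-fold rise (log2 fold change 1.38 ± 0.06 SE, adjusted p = 1.03e-08). Gbp5 stood at 19.5, 17.2 and 18.6 CPM in WT SVF and at 49.6, 51.4 and 44.7 CPM in FI3OE (2.66-fold, log2 1.41 ± 0.07, adjusted p = 2.80e-08). In both genes all FI3OE libraries were above all WT libraries.

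Gbp3 and Gbp7, the other members on chromosome 3, are recruited to pathogen vacuoles, and Gbp7 has been linked to the assembly of the phagocyte NADPH oxidase. Gbp3 had 62.8, 71.5 and 66.8 CPM in WT SVF and 194, 192 and 171 CPM in FI3OE (2.81-fold, log2 1.49 ± 0.06, adjusted p = 1.08e-08). Gbp7 had 85.4, 83.8 and 86.8 CPM in WT SVF and 207, 200 and 190 CPM in FI3OE (2.36-fold, log2 1.24 ± 0.04, adjusted p = 2.79e-09). The groups did not overlap in either gene, and the 4 members on chromosome 3 thus rose by similar folds, between 2.36 and 2.81.

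On chromosome 5 the folds were more uneven. Gbp10, one of the members linked to resistance against intracellular bacteria, rose most, from 17.9, 21.5 and 20.5 CPM to 95.9, 89.2 and 81.9 CPM (4.50-fold, log2 2.17 ± 0.07, adjusted p = 3.12e-09), and its fold change ranked 32 of 16105 genes. Gbp6, from the same group of defence genes, rose least among those that passed, from 131, 138 and 132 CPM to 240, 236 and 242 CPM (1.81-fold, log2 0.86 ± 0.04, adjusted p = 1.80e-08). Gbp6 and Gbp10 share most of their sequence, so their separate values are uncertain. In GENCODE M21, 80.8% of the distinct 31-base words of Gbp10 transcripts also occur in Gbp6 transcripts, and only 10.2% occur in no other gene. Another gene model, Gm43302 (chr5:105214907-105293695, minus strand), spans both loci. Its estimated reads were 0 in WT SVF, and 202, 0 and 263 in the 3 FI3OE libraries. Summed, Gbp6 and Gbp10 went from 154 ± 6 to 329 ± 7 CPM, and with Gm43302 from 154 ± 6 to 334 ± 10 CPM.

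The overlapping loci Gbp9, Gbp4 and Gbp8 completed the cluster. Gbp9, recruited to parasite vacuoles, had 27.1, 28.6 and 27.2 CPM in WT SVF and 85.7, 91.0 and 81.4 CPM in FI3OE (3.15-fold, log2 1.66 ± 0.05, adjusted p = 1.96e-09). Gbp4, reported to restrain IRF7, was scarce, with 2.38, 2.18 and 1.77 CPM in WT SVF and 6.26, 6.39 and 5.63 CPM in FI3OE (2.92-fold, log2 1.54 ± 0.14, adjusted p = 7.83e-06). Its change fell to a log2 of 0.81 when counts were offset by average transcript length. Gbp8, a member of little-known function, had 3.09, 2.18 and 1.81 CPM in WT SVF and 4.14, 3.84 and 2.49 CPM in FI3OE. The Gbp8 groups overlapped and the difference did not pass (log2 0.57 ± 0.24, adjusted p = 0.0840), but it did pass without FI3OE replicate 3 (log2 0.78, adjusted p = 0.0222) or without WT SVF replicate 1 (log2 0.81, adjusted p = 0.0333). These 3 genes are easier to tell apart than Gbp6 and Gbp10, since 81.7% of the 31-base words of Gbp9, 85.7% of those of Gbp4 and 68.9% of those of Gbp8 occur in no other gene.

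Macrophage markers in the same cultures summed to 2412 ± 83 CPM in WT SVF and 2238 ± 8 CPM in FI3OE, with 4 of 15 higher, 4 lower and 7 not past an adjusted p of 0.05 (edgeR). Of 12 adipocyte markers, 3 were higher and 6 lower by the same test, against 20.2% of all genes higher and 16.8% lower. Fibroblast and progenitor markers had 2 of 10 higher and 2 lower, and endothelial markers 2 of 10 higher and 1 lower. The part of these cells in the GBP levels was not tested.

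By TPM, the GBP transcripts of an adipocyte culture came mainly from 3 genes. For levels between genes TPM was used, which divides reads by transcript length before scaling. In WT SVF, Gbp2 had 89.7 ± 7.8 TPM and Gbp3 81.9 ± 6.6, whose ranges overlapped. Gbp6 followed with 68.3 ± 2.8 and Gbp7 with 35.5 ± 1.1, each separate from its neighbours in the order. Gbp10 (12.0 ± 0.9) overlapped Gbp9 (11.5 ± 1.1), which overlapped Gbp5 (10.4 ± 0.6), while the ranges of Gbp10 (11.2 to 13.0) and Gbp5 (9.95 to 11.1) were apart. Gbp4 had 3.12 ± 0.88 TPM and Gbp8 1.63 ± 0.43. In FI3OE the order changed only at the top, with Gbp3 at 224 ± 13 and Gbp2 at 222 ± 9 TPM, still overlapping. The share of Gbp6 in the family total went from 21.8% to 15.9% and that of Gbp10 from 3.82% to 5.95%.

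**Figure D2:**
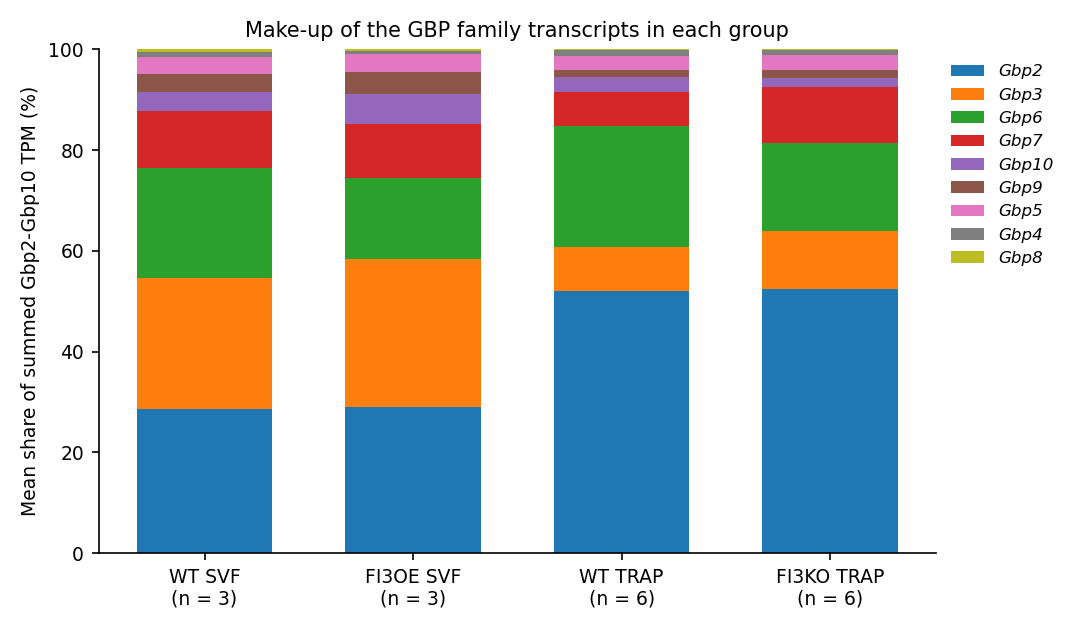
Mean share (%) of each member in the summed TPM of Gbp2 to Gbp10, by group. Gbp2 holds 28.5% in WT SVF and 52.0% in WT TRAP, and the share of Gbp3 is 26.1% and 8.83%.

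In adipocytes of HFD-fed mice, the family was lower and more dominated by Gbp2. In WT TRAP, Gbp2 had 49.7 ± 6.1 TPM (SD, n = 6), 52.0% of the family total, and Gbp6 had 23.0 ± 4.1 TPM, and both stood apart from the rest. Gbp3 (8.34 ± 1.67 TPM) and Gbp7 (6.46 ± 1.30) overlapped each other. Gbp5 (2.76 ± 0.27), Gbp10 (2.72 ± 0.97), Gbp9 (1.35 ± 0.27) and Gbp4 (1.14 ± 0.39) overlapped in neighbouring pairs, and Gbp8 stood apart below them, near the detection floor at 3 or 4 reads per library.

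Between WT TRAP and WT SVF, 8 of 9 members were lower in TRAP with an adjusted p of 0.05 or lower (edgeR, 16454 genes tested), against 42.1% of all genes lower and 38.1% higher. Both cutoffs were passed downward by 7 members, against 29.5% of genes downward and 17.4% upward. All libraries of 8 members were lower in TRAP on CPM, as for 55.9% of genes, and 22.4% separated upward. Tissue depot, mouse line, diet, culture with its medium, virus and RNA isolation all differ between these groups and cannot be told apart. Age and housing temperature of the mice may differ as well. On plain CPM every difference lies 0.46 lower on the log2 scale than after TMM normalisation. These counts include Gbp8, which had 46 to 74 reads in WT SVF and 3 or 4 in WT TRAP and so passed the filter on low counts only through WT SVF. Among the other members, the largest drops were those of Gbp3 (log2 -2.69 ± 0.11, adjusted p = 4.69e-09) and Gbp9 (log2 -2.69 ± 0.11, adjusted p = 4.20e-09). Gbp7 (-1.93), Gbp5 (-1.58), Gbp10 (-1.34) and Gbp6 (-1.27) were lower by less on the log2 scale. Gbp2 was least reduced among those that passed (log2 -0.62 ± 0.10, adjusted p = 2.26e-04). Gbp4 did not pass (0.03 ± 0.19, adjusted p = 0.889), and its sign turned with DESeq2 size factors. Its lowest estimate was -1.03, with the transcript-length offset, and its lowest adjusted p over the alternatives was 0.0110 (edgeR). Whether Gbp4 passes thus depends on the processing. Markers of several cell types moved with this contrast. All 15 macrophage markers were lower in TRAP, with a summed level of 32.9 to 90.2 CPM in WT TRAP, as were 7 of 10 fibroblast and progenitor markers (2 higher), whose sum was 13932 to 14311 CPM in WT SVF and 1020 to 2245 in WT TRAP. Of 12 adipocyte markers 11 were higher in TRAP, and of 11 endothelial markers tested 6 were higher and 4 lower. The part of these cells in the GBP difference was not tested.

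Part of the family was lower in eWAT adipocytes without Irf3. Of the 8 members tested, 4 were lower in FI3KO with an adjusted p of 0.05 or lower (edgeR quasi-likelihood test, 13624 genes tested), against 18.3% of all genes lower and 19.1% higher, and no member was higher. Both cutoffs were passed by 2 members downward, against 4.87% of genes downward and 1.74% upward. These were Gbp6 and Gbp10, whose split is uncertain, so they do not count as separate observations. The median log2 fold change was -0.45 over the members and 0.02 over all genes. In 2 members all FI3KO libraries lay below all WT libraries, as for 9.82% of genes, with 5.39% separated upward. The summed level of the 9 genes ranged from 118 to 165 CPM in WT TRAP (mean 137) and from 68.8 to 100.2 CPM in FI3KO (mean 88.1), without overlap.

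**Figure D3:**
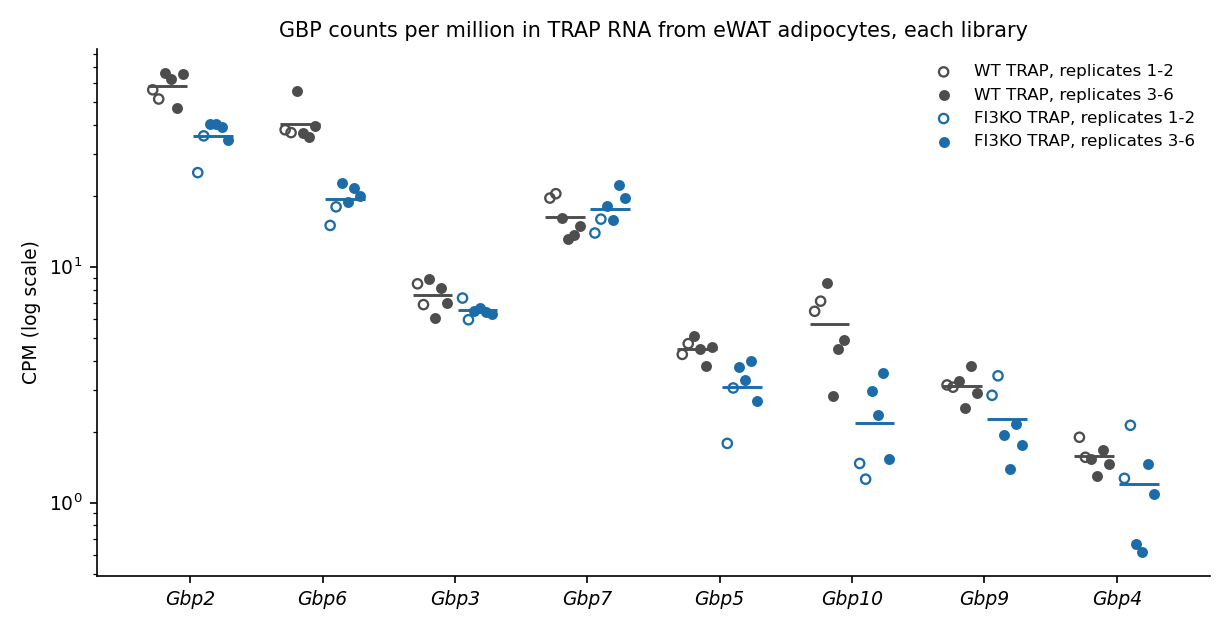
CPM (log axis) of 8 members in each TRAP library, with WT TRAP in grey, FI3KO in blue, open circles for replicates 1 and 2 and filled circles for replicates 3 to 6, and a line at the group mean. Gbp2 and Gbp6 are separate between groups, and the other genes overlap.

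Gbp6 ranged from 35.4 to 55.8 CPM in WT TRAP (median 37.6) and from 15.0 to 22.7 CPM in FI3KO (median 19.4). The groups did not overlap, and the fall was 2.03-fold (log2 -1.02 ± 0.11, adjusted p = 9.66e-05). It was smaller than 2-fold without WT TRAP replicate 3, the library with the highest value (log2 -0.92), and without FI3KO replicate 1 (-0.97). Gbp10 ranged from 2.82 to 8.51 CPM in WT TRAP (median 5.69) and from 1.26 to 3.53 CPM in FI3KO (median 1.94), a 2.53-fold fall (log2 -1.34 ± 0.30, adjusted p = 0.00404). The Gbp10 groups overlapped through WT TRAP replicate 4 at 2.82 CPM, in which 110 reads were assigned to Gm43302, which had 0 reads in every other TRAP library. Summed over the pair, Gbp6 and Gbp10 had 39.7 to 64.3 CPM in WT TRAP and 16.4 to 25.7 CPM in FI3KO, without overlap.

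Gbp2 ranged from 47.2 to 66.2 CPM in WT TRAP (median 59.2) and from 25.1 to 40.3 CPM in FI3KO (median 37.4). The groups were separate, and Gbp2 was 1.57-fold lower (log2 -0.65 ± 0.11, adjusted p = 6.96e-04). Gbp5 ranged from 3.81 to 5.10 CPM in WT TRAP (median 4.50) and from 1.78 to 4.00 CPM in FI3KO (median 3.18), overlapping at the edge (log2 -0.49 ± 0.16, adjusted p = 0.0291). The Gbp5 call was lost without any of FI3KO replicate 6 or WT TRAP replicates 3, 4 and 6, with adjusted p from 0.0507 to 0.0671.

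The remaining members did not pass. Gbp9 had 2.50 to 3.81 CPM in WT TRAP and 1.39 to 3.45 in FI3KO (log2 -0.42 ± 0.21, adjusted p = 0.138). Without FI3KO replicate 2 it passed (log2 -0.59, adjusted p = 0.0286). Gbp4 had 1.30 to 1.89 CPM in WT TRAP and 0.62 to 2.13 in FI3KO (log2 -0.32 ± 0.28, adjusted p = 0.389), and Gbp3 had 6.05 to 8.90 and 5.96 to 7.36 CPM (log2 -0.16 ± 0.10, adjusted p = 0.232). Gbp7 was the one member with a positive estimate, 13.1 to 20.4 CPM in WT TRAP and 13.9 to 22.2 in FI3KO (log2 0.15 ± 0.14, adjusted p = 0.397). Gbp8, at 0 to 6 reads per library, was not tested, and Gbp2b had 0 to 3 reads.

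**Figure D4:**
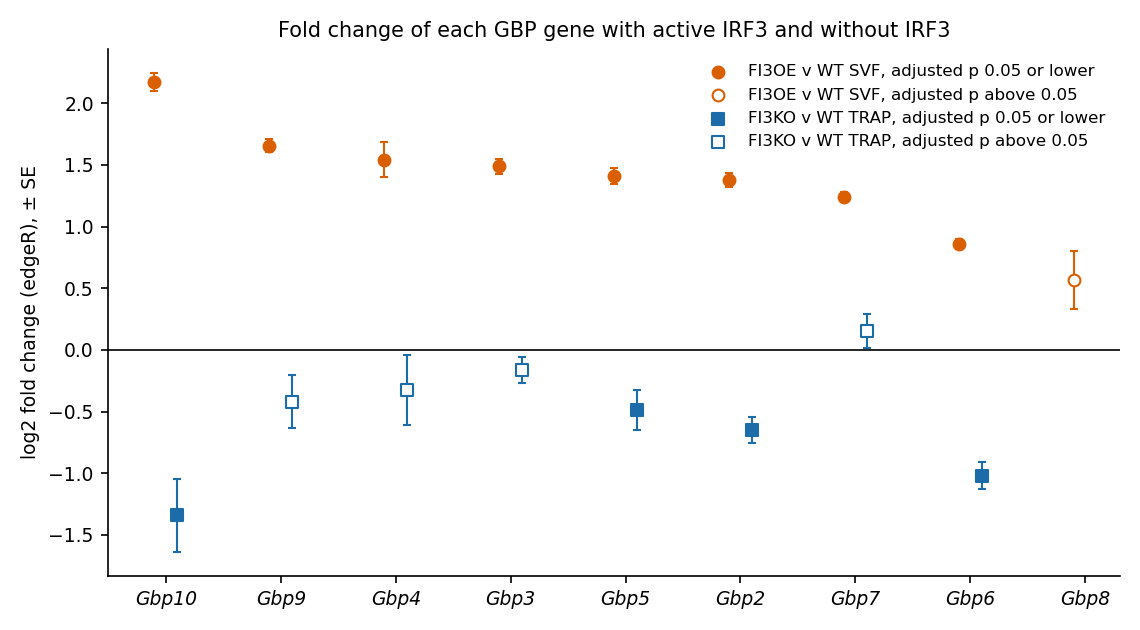
Log2 fold change ± SE (edgeR) of each member in FI3OE against WT SVF (orange circles) and FI3KO against WT TRAP (blue squares), with filled symbols where the adjusted p was 0.05 or lower. The SVF estimates lie between 0.57 and 2.17, and the TRAP estimates between -1.34 and 0.15.

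Side by side, the 4 members that fell without Irf3 (Gbp2, Gbp5, Gbp6 and Gbp10) were all higher with active IRF3, as were all 8 members tested in TRAP, so this overlap was fixed in advance. Gbp3, Gbp4, Gbp7 and Gbp9 rose with active IRF3 and did not pass in TRAP. Gbp10 had the largest rise in SVF (log2 2.17) and, with all libraries, the largest fall in TRAP (-1.34). Gbp6, whose split from Gbp10 is uncertain, had the smallest rise of those that passed in SVF and the second largest fall in TRAP. In replicates 3 to 6 alone the fall of Gbp6 (-0.97) was about as large as that of Gbp10 (-0.94). Relative to Gbp2 in the same library, Gbp6 CPM had a log2 ratio (± SD) of 0.13 ± 0.07 in WT SVF and -0.40 ± 0.09 in FI3OE. In TRAP RNA the ratio was -0.53 ± 0.19 in WT and -0.89 ± 0.13 in FI3KO, so that Gbp6 was lower relative to Gbp2 in FI3OE and in FI3KO. The Gbp7 ratio to Gbp2 was -1.85 ± 0.36 in WT TRAP and -1.03 ± 0.23 in FI3KO. These ratios are descriptions without a test.

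The TRAP comparison was also read within each set of replicates. In replicates 3 to 6 alone (4 against 4), 5 members passed an adjusted p of 0.05 by edgeR, 4 lower and 1 higher, against 24.8% of all genes lower and 25.7% higher, with Gbp2 (log2 -0.60), Gbp6 (-0.97), Gbp9 (-0.74) and Gbp10 (-0.94) lower and Gbp7 (0.44, adjusted p = 0.00726) higher. In replicates 1 and 2 alone (2 against 2), Gbp6 (-1.13, adjusted p = 0.0111) and Gbp10 (-2.27, adjusted p = 0.0107) passed downward, against 1.98% of all genes lower and 1.58% higher. Gbp7 had 19.5 and 20.4 CPM in WT TRAP replicates 1 and 2 against 13.9 and 15.9 in FI3KO, but 13.1 to 16.1 CPM in WT replicates 3 to 6 against 15.7 to 22.2 in FI3KO. The genotype effect on Gbp7 differed between the sets (interaction -0.81 ± 0.18 on the log2 scale, adjusted p = 0.00607, edgeR), and it was the one member of 8 to pass, against 26.5% of all genes. The interactions of Gbp10 (-1.33 ± 0.54, adjusted p = 0.0902) and Gbp9 (0.81 ± 0.29, adjusted p = 0.0606) were as large but did not pass, and 3 members had an unadjusted p under 0.05. Gbp6 fell alike within both sets, -1.13 and -0.97, and the interaction was -0.16 ± 0.21 (adjusted p = 0.600).

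**Figure D5:**
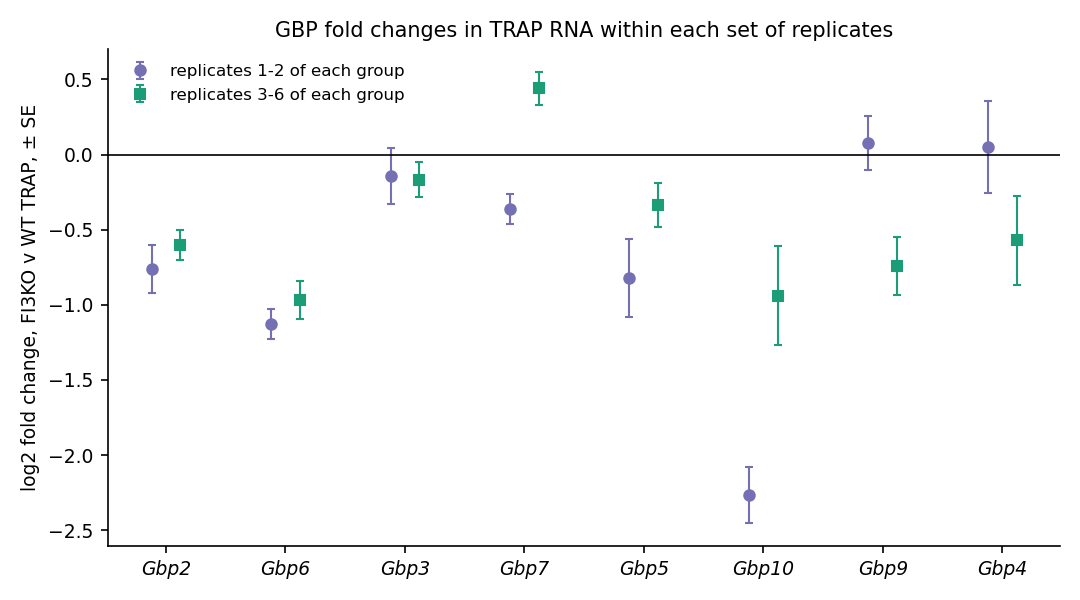
Log2 fold change ± SE of FI3KO against WT TRAP for 8 members, fitted within replicates 1 and 2 (purple circles) and within replicates 3 to 6 (green squares). Gbp7 lies below 0 in the first set and above 0 in the second, and Gbp2, Gbp3, Gbp5, Gbp6 and Gbp10 lie below 0 in both.

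Markers of adipocytes and of other cells moved with genotype in TRAP RNA, and several also with the sets. Of 12 adipocyte markers, 5 were higher in FI3KO and 1 lower, against 19.1% of all genes higher and 18.3% lower. The largest changes were those of Cfd (log2 1.83), Lep (-1.63) and Retn (0.96). Adipocyte markers summed to 36700 to 42728 CPM in WT TRAP and 32386 to 36741 in FI3KO. Of 5 mesothelial markers tested, none passed. Of 12 macrophage markers tested, 9 were lower in FI3KO and 1 was higher, Cd14. The summed level of all 15 was 65.3 to 90.2 CPM in WT and 15.0 to 17.7 in FI3KO in replicates 3 to 6, but 32.9 to 34.2 in WT and 34.1 to 46.8 in FI3KO in replicates 1 and 2, with none of the 15 at 0 in a whole group. Trem2 (log2 -2.29), Itgam (-1.88) and Adgre1 (-1.74) fell most among them. Of 9 fibroblast and progenitor markers tested, 4 were lower in FI3KO (Col1a1 at log2 -1.82, Ly6a at -0.87, Dpp4 and Cd55) and 1 higher (Dcn, 1.36). Their sum was 1595 to 2245 CPM in WT and 572 to 965 in FI3KO in replicates 3 to 6, and 1020 to 1027 and 1005 to 1055 in replicates 1 and 2. In replicates 1 and 2, neither the macrophage nor the fibroblast and progenitor sum was lower in both FI3KO libraries than in both WT libraries. The member estimates in that set (edgeR) were below 0 for Gbp2 (log2 -0.76, adjusted p = 0.0599), Gbp3 (-0.14), Gbp5 (-0.82), Gbp6 (-1.13), Gbp7 (-0.36) and Gbp10 (-2.27). They were above 0 for Gbp4 (0.050) and Gbp9 (0.077). In replicates 3 to 6 the last 2 were at -0.57 and -0.74. Endothelial markers summed to 112 to 181 CPM in FI3KO replicates 1 and 2 and to 43.6 to 80.1 CPM in all other TRAP libraries, and epididymal markers to 1.55 to 1.66 and to 0.0623 to 0.299 CPM. Of 12 T and NK cell markers, 1 could be tested in TRAP, Trac, which fell (log2 -1.47). With 0.46 to 1.11 CPM in WT TRAP and 0.09 to 0.48 in FI3KO, Trac could pass the filter on low counts through WT alone. Nothing is drawn from its direction. The part of macrophage, fibroblast, endothelial, epididymal and T or NK cell RNA in the GBP values was not tested.

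Other genes of the pathway were read from fixed lists, whose counts stand against 20.2% of all genes higher and 16.8% lower in SVF, and 19.1% higher and 18.3% lower in TRAP. The immunity-related GTPases, which work beside GBPs at vacuoles, rose with active IRF3 in 11 of 11 genes (median log2 1.21), led by Tgtp1 (3.02), Tgtp2 (1.56) and Igtp (1.28), and Tgtp1 and Tgtp2 are near-identical copies. In TRAP, 2 of 10 fell, Iigp1 (log2 -0.90) and F830016B08Rik (-0.66), a share near that of all genes. The summed level of the 11 listed genes was 47.0 to 47.5 CPM in WT and 24.6 to 27.5 in FI3KO in replicates 1 and 2, and overlapped in replicates 3 to 6 (35.9 to 49.2 and 32.3 to 42.4). No interferon ligand of 9 could be tested. Ifnb1 had 0 reads in all WT SVF and TRAP libraries, which allows up to 0.139 CPM, and 1 read in 1 FI3OE library, and Ifng had 0 reads in all SVF libraries and at most 0.03 CPM in TRAP. Of 14 receptor and JAK-STAT genes, 6 rose and 2 fell in SVF, among them Stat2 (log2 0.83), Irf9 (0.63) and the ISG15 protease Usp18 (1.41), which rose, as did the receptor gene Ifnar2 (0.36), and the receptor genes Ifnar1 (-0.23) and Ifngr1 (-0.17), which fell. In TRAP 1 rose, the feedback inhibitor Socs1 (1.15), and 6 fell, among which were the receptor genes Ifnar1, Ifnar2, Ifngr1 and Ifngr2 (log2 -0.31 to -0.50), while Irf9 (0.22, adjusted p = 0.113) did not pass.

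Among the 8 IRF genes, 4 rose and 1 fell in SVF. Irf7, the amplifier of type I interferon, rose by 1.23 on the log2 scale and Irf1, a driver of GBP genes, by 0.64. Irf4 fell (-0.82). In TRAP 1 of 7 rose, Irf1 (0.21, adjusted p = 0.0132), and 3 fell, Irf8 (-2.64), Irf5 (-1.67) and Irf3. Irf8 and Irf5 are mostly known from myeloid cells. Of 11 inflammasome genes 5 rose in SVF, including the nucleic acid sensor Zbp1 (log2 1.64) and the pore protein Gsdmd (0.57), and 1 fell, the sensor Nlrp3 (-0.53). In TRAP 3 of 9 fell, including Zbp1 (-1.19) and the sensor Nlrp1b (-1.39). Casp4, which encodes caspase-11, passed narrowly in SVF (log2 0.20, adjusted p = 0.0498) and did not in TRAP (-0.62, adjusted p = 0.0556), and the DNA sensor Aim2 did not pass in SVF (-0.15, adjusted p = 0.655) and was too low to test in TRAP. The 11 ATG conjugation genes, which help load GBPs onto vacuoles, were mixed, with 3 up and 2 down in SVF and 4 up and 3 down in TRAP. Of these, 4 passed in both, Gabarapl2 upward (log2 0.20 in SVF, 0.26 in TRAP) and Gabarapl1 (-0.49 and 0.37), Atg12 (0.18 and -0.45) and Atg3 (0.19 and -0.28) in opposite directions. Of 6 enzymes that prenylate and process CaaX proteins, 1 rose (Zmpste24, 0.30) and 1 fell (Rce1, -0.22) in SVF, and 1 rose in TRAP (Icmt, 0.16).

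The genes most like the family across all 18 libraries were sought by the root-mean-square difference between a gene's log2 CPM and the mean profile of the 8 members tested in both comparisons, each centred on its mean within the SVF and within the TRAP libraries. The search took in the 10601 genes whose log2 CPM averaged 1 or more in each experiment, which leaves out Gbp4 and Gbp8. Against a median difference of 0.53, the closest non-members were Dcxr (0.13), Ly6e (0.15), Rhod (0.18), Psmb8 (0.18) and Trim30a (0.19). Gbp2 (0.18) and Gbp5 (0.18) were the most typical members, and Gbp10 (0.51) the least.

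Annotated transcript types are a last description. Gbp2-202, a Gbp2 transcript annotated for nonsense-mediated decay, had no TPM in the SVF groups, and took a mean share of 10.9% of Gbp2 TPM in WT TRAP (0 to 22.3%) and 23.0% in FI3KO (14.2 to 34.4%), with overlapping ranges. Gbp6-203, another such transcript, held 33.5% of Gbp6 TPM in WT SVF and 28.2% in WT TRAP. These shares are Salmon estimates among transcripts that overlap.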

How the data were processed

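Adipocyte RNA was depleted of ribosomal RNA and made into libraries with a transposase kit that does not keep strand (12 PCR cycles), so reads of overlapping or antisense genes are not told apart by strand. The authors trimmed the reads with fastp, dropped those under 24 nt and ran Salmon 1.4.0 with sequence and GC bias correction on GENCODE M24 transcripts of GRCm38. The deposited tables give, per transcript, estimated counts (expected counts, neither whole nor normalised) and TPM, both made by the authors with Salmon. Here the estimated counts were summed per gene with GENCODE M21, which matched 117850 of 118733 transcripts (99.26%), and rounded to whole numbers. Unmatched transcripts held 0.375 to 1.08% of reads and were kept as features of their own. TPM was summed per gene in the same way.

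Genes were filtered with filterByExpr (minimum count 10), normalised by TMM and tested with the quasi-likelihood F test of edgeR 4.0.16 in R 4.3.3, with Benjamini-Hochberg adjustment over all genes tested and only the 2 groups compared in each fit. SE was taken as the absolute log2 fold change over the square root of F. Calls used adjusted p of 0.05 or lower with a log2 fold change of at least 1, the rule of the study, and, as an addition here, adjusted p alone. On simulated data with 200 genes changed by a log2 of 1.5, the FI3OE design recovered 99% with 32 false calls among 15853 genes, and the FI3KO design 96% with 6 among 13476. Set against the calls made, the 32 were a larger share than the adjusted p cutoff of 0.05 allows. The changed genes were drawn from those with more reads, so recovery of scarce genes was not covered. The profile search used log2 of CPM plus 0.1 and genes with mean log2 CPM of at least 1 in both experiments. Distinct 31-base words were counted in GENCODE M21 transcripts. PCR duplicates carry no molecular identifiers, so the limit of 3 reads covers counting error only. Alternatives were DESeq2 1.42.0 (size factors or Wald test), other filters, a transcript-length offset, robust dispersion, 1 fit of 18 libraries, a replicate block, removal of mitochondrial and ribosomal genes or of unmatched transcripts, WT TRAP replicates 1 and 2 summed, a term for the replicate sets, each set alone, and leaving out each replicate. Figures were drawn with matplotlib 3.10.9. The members, gene lists and call rules were chosen with earlier results of these data known. Genes named in the text were all members, Irf3, Gbp2b, a few set interferon and inflammasome genes (1 of them not reported here), up to 3 genes per list with the largest change among those that passed, and the 5 most similar non-members. Names outside this rule (Cd14, Gabarapl2, Cd55, the receptor genes and Gm43302) were chosen after their values were seen.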

Additional observations from a re-analysis of the deposited data

Results flagged for a closer look

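Gbp6 in WT TRAP replicate 3 was 55.8 CPM, while the other 5 WT TRAP libraries lay between 35.4 and 39.6 CPM. The gap to the nearest library was 0.80 of the group's range, above the limit of 0.625 for 6 samples. Of 18 groups of 6 examined (9 members in both TRAP groups), chance alone marks about 5%. Without this library the fall of Gbp6 in FI3KO was -0.92 on the log2 scale.

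The effect of genotype on Gbp7 in TRAP RNA differed between replicates 1 and 2 and replicates 3 to 6, with an interaction of -0.81 on the log2 scale (adjusted p = 0.00607, edgeR). The estimate was -0.36 in the first set (adjusted p = 0.0955) and 0.44 in the second (adjusted p = 0.00726). The same interaction passed in 26.5% of all genes tested.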

How the results depend on the processing

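With active IRF3, 141 of 144 alternative values of the members kept their direction and side of the threshold, and 3 moved past it, all of Gbp8. The 7 members past both cutoffs became 6 with the length offset, through Gbp4 (0.81). In FI3KO against WT TRAP, 191 of 208 did so. The number of members past both cutoffs in TRAP was 2, and 1 with the length offset, 1 to 2 on leaving out single libraries (1 without FI3KO replicate 1 or WT TRAP replicate 3, through Gbp6), and 0 in replicates 3 to 6 alone, where 6 passed an unadjusted p of 0.05 and 5 the adjusted one by edgeR and Gbp6 fell by 0.97 on the log2 scale. By adjusted p the number was 4, and 2 in replicates 1 and 2 alone, 5 in replicates 3 to 6 alone, 5 in 1 fit of 18 libraries, where Gbp9 passed (-0.43, adjusted p = 0.0472), 3 with no filter or the length offset, and 3 to 5 on leaving out single libraries (3 without FI3KO replicate 6 or WT TRAP replicates 3, 4 or 6, and 5 without FI3KO replicate 2). In replicates 1 and 2 alone the signs of Gbp4 (0.050), Gbp7 (-0.36) and Gbp9 (0.077) turned. Members with an interaction numbered 1, and 2 with no filter on low counts and 1 to 2 on leaving out single libraries (2 without FI3KO replicates 5 or 6 or WT TRAP replicates 3 or 4). The cause was not tested. The Gbp5 call in TRAP was lost with no filter (-0.48, adjusted p = 0.0692) and with the length offset (-0.43, adjusted p = 0.0667).

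Between WT TRAP and WT SVF, 172 of 179 values kept their direction and side, and the other 7 were of Gbp4. Its sign turned with DESeq2 size factors (-0.0053), the DESeq2 Wald test (-0.0063) and at least 10 counts per library (-0.15). It also turned with the length offset (-1.03), replicates 1 and 2 summed (-0.0072), and without WT TRAP replicate 1 (-0.042) or WT SVF replicate 3 (-0.076). The range was -0.076 to 0.13 over single libraries left out. At -1.03 the fall of Gbp4 is beyond 2-fold, and its lowest adjusted p over these alternatives was 0.0110 (edgeR). The smallest fall of Gbp10 was -0.97, less than 2-fold. The count of 7 members past both cutoffs can therefore move either way.

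Same-numbered replicates did not deviate together (correlation of deviations across genes -0.033 to 0.099 in SVF and -0.36 to 0.029 in TRAP), so the numbers were not taken to pair samples. With the replicate number as a block, the members with adjusted p of 0.05 or lower numbered 9 in SVF, Gbp8 included (0.58, adjusted p = 0.0287), and 3 in TRAP, without Gbp5 (-0.52, adjusted p = 0.0567). Depth limits Gbp8 and Gbp2b in TRAP, at 0 to 6 reads per library.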
